A study of Mus musculus with 16 samples.

Results

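The C1q/TNF-related protein (CTRP) family was described in mouse gastrocnemius, a calf muscle, in a study of cancer cachexia. Its members, selected on their gene symbols, were C1qtnf1, C1qtnf2, C1qtnf3, C1qtnf4, C1qtnf5, C1qtnf6, C1qtnf7, C1qtnf9 and C1qtnf12, which are 9 of the 21923 genes in the deposited table. The family itself was chosen by the read counts of C1qtnf4, which was listed at 0 in every CAC mouse and in NOR replicate 2, so C1qtnf4 is described here with no test between groups and only the other 8 members were tested.

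RNA-seq was made from 16 muscles, 4 in each of 4 groups, all taken on day 30. NOR mice were healthy controls injected with PBS in place of tumor cells, and they too received PBS daily by intraperitoneal injection from day 9. CAC mice carried subcutaneous tumors and received PBS daily by intraperitoneal injection from day 9, AM mice carried the same tumors and received amiloride at 2 mg/kg daily from day 9, and KD mice carried tumor cells with shRNA against Rab27a and Rab27b, a pair of small GTPases needed for exosome release, and received PBS. Replicates 1 and 2 of each group were labelled C57BL/6 and replicates 3 and 4 BALB/c. The first strain was inoculated with Lewis lung carcinoma (LLC) cells and the second with CT26 colon carcinoma cells, so the strain and the tumor line cannot be told apart. The labels give no age for single mice. Rab27a and Rab27b were knocked down in the tumor and not in the muscle, so the muscle counts do not check that label.

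CTRPs are secreted proteins, most of which share a collagen-like stalk and a globular C1q domain with adiponectin, the best known hormone of fat cells. Several act on muscle, liver, heart or blood vessels by way of adiponectin receptors and AMP-activated protein kinase (AMPK), the energy sensor that turns on glucose uptake and fat oxidation. Others act on connective tissue: one promotes the growth of cartilage cells, and another has been studied in tissue fibrosis.

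Total counts ran from 35913190 to 61032708 per library, and no pair of libraries of a group agreed within sampling noise. The summed level of 8 skeletal muscle markers lay between 58107 and 169462 CPM (reads scaled for library size) in all 16 muscles. Other markers set some libraries apart. The sum of 8 lymphocyte markers was 0.447 to 4.13 CPM in NOR replicate 1, CAC replicates 1 and 4 and KD replicates 2 and 3, and 35.2 to 418 CPM in the other 11. All 4 Y-linked genes checked were at 0 in KD replicate 3, a BALB/c mouse, and summed to 111 to 174 CPM in the others; the labels name both sexes for BALB/c and males for C57BL/6. Between the labelled strains, edgeR called 0 of 15652 genes over the 16 libraries, DESeq2 1 and limma-voom 0, and 277 genes (1.77%) had an unadjusted edgeR p under the 0.05 limit. Inbred strains of mice usually differ in the expression of many genes, so these counts leave the strain labels in doubt, and strains are named below only as labelled.

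Within the healthy muscle the family spanned a wide range of expression. On the length-corrected FPKM scale, C1qtnf9, whose protein acts on heart and vessel walls, led at 47.6 ± 7.92 FPKM (SD, n = 4) in NOR mice, followed by C1qtnf1, also known from vessels and fat, at 17.7 ± 1.73 FPKM. C1qtnf9 was the highest member in 16 of 16 muscles, with levels from 27.8 to 74.1 FPKM. C1qtnf12, which encodes the insulin-sensitizing factor adipolin, had 11.4 ± 2.28 FPKM, C1qtnf6 10.4 ± 1.60 FPKM and C1qtnf5 9.18 ± 1.85 FPKM; the ranges of these neighbours overlapped. The level of C1qtnf2 was 5.43 ± 1.16 FPKM, below every C1qtnf5 value. At the foot of the order stood C1qtnf3 with 1.38 ± 0.483 FPKM and C1qtnf7 with 0.993 ± 0.363 FPKM, whose ranges also overlapped, while C1qtnf4 was listed at 0 in NOR replicate 2 and at 3.55 to 3.95 FPKM in the other NOR mice.

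**Figure D1:**
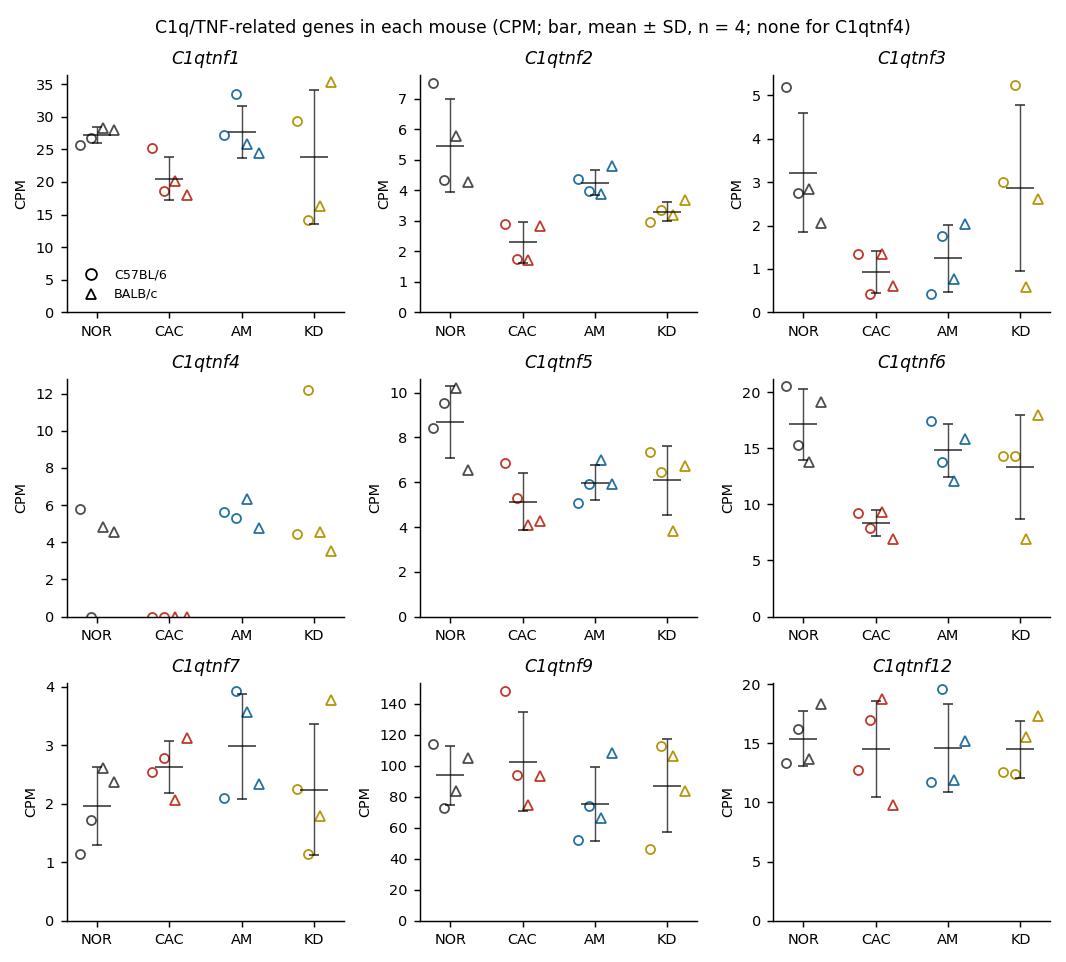
CPM of each member in each mouse, by group; circles are C57BL/6 and triangles BALB/c mice, and black bars give the mean ± SD of 4 mice except for C1qtnf4. The CAC values of C1qtnf2, C1qtnf3 and C1qtnf6 lie under all NOR values, the C1qtnf4 values of all CAC mice lie at 0, and C1qtnf9 and C1qtnf12 overlap between all groups.

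The first comparison, CAC against NOR, asks what a tumor-bearing, cachectic state does to the muscle. A gene was called when its Benjamini-Hochberg adjusted p (FDR) from the edgeR quasi-likelihood test was at most 0.05 and its fold change at least 1.5 or at most 0.67. Of the 8 tested members, 4 fell (C1qtnf6, C1qtnf2, C1qtnf3 and C1qtnf5), none rose and the other 4 did not pass; 9.48% of all 14666 genes tested were called, 5.17% as lower. The median log2 difference was −0.59 over the 8 members and 0.01 over all genes. The CAC range lay wholly below the NOR range for C1qtnf1, C1qtnf2, C1qtnf3 and C1qtnf6, which was so for 10.8% of all genes. In bulk muscle, fewer cells of a type and less RNA per cell cannot be told apart.

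C1qtnf6, which encodes a secreted CTRP also described as an inhibitor of the alternative complement pathway, had 20.5, 15.3, 13.8 and 19.1 CPM in NOR replicates 1 to 4. In the CAC mice its level was 9.22, 7.90, 9.36 and 6.92 CPM. All CAC values were lower than all NOR values, and the fold was 0.485 (log2 −1.04 ± 0.18 SE, edgeR FDR 0.00967). The gene spans chr15:78523346-78531416 on the minus strand of GRCm38, and 4.33% of its exon bases are shared with Gm49490, an antisense gene.

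C1qtnf3, also named cartducin for its growth effect on cartilage cells, had 5.20, 2.76, 2.84 and 2.06 CPM in the NOR mice. In CAC replicates 1 to 4 it fell to 1.35, 0.425, 1.35 and 0.601 CPM, counts of 59, 19, 73 and 38 reads. The ranges did not overlap, and this was the largest change of a tested member, with a fold of 0.288 (log2 −1.79 ± 0.47 SE, edgeR FDR 0.0401). The gene lies at chr15:10952332-10980150 on the plus strand with no annotated gene overlapping it.

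C1qtnf2, whose protein activates AMPK and promotes glycogen storage and fat oxidation in muscle cells, also fell. Its levels were 7.51, 4.33, 5.77 and 4.26 CPM in NOR and 2.89, 1.75, 1.70 and 2.84 CPM in CAC mice, again without overlap. The fold was 0.416 (log2 −1.26 ± 0.29 SE, edgeR FDR 0.0238). C1qtnf2 lies at chr11:43474276-43491525 on the plus strand, and no 31-base word of its transcripts occurs in another annotated gene.

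C1qtnf5, known for its expression in the retinal pigment epithelium and for mutations in a late-onset retinal degeneration, had 8.41, 9.56, 10.2 and 6.53 CPM in NOR and 6.88, 5.28, 4.11 and 4.28 CPM in CAC mice. The ranges overlapped by a single pair, NOR replicate 4 and CAC replicate 1. The fold was 0.589 (log2 −0.76 ± 0.21 SE, edgeR FDR 0.0474). All of its exon bases (100%) also lie in exons of Mfrp on the same strand at chr9:44107245-44109187, and 90.2% of its 31-base words occur in Mfrp transcripts. The table lists 206 to 572 reads for C1qtnf5 and 2 to 21 for Mfrp in each mouse, so how the counting divided reads between both genes bears on its level.

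C1qtnf1, C1qtnf7, C1qtnf9 and C1qtnf12 did not pass the test. C1qtnf1 was 25.6, 26.7, 28.3 and 28.0 CPM in NOR and 25.2, 18.6, 20.1 and 18.0 CPM in CAC mice; the groups did not overlap, but the log2 difference was −0.41 ± 0.12 SE with an edgeR FDR of 0.0522, and 20.5% of its exon bases are shared with the antisense gene Gm11747. C1qtnf7, which has been linked to glucose tolerance, averaged 1.96 ± 0.662 CPM in NOR and 2.63 ± 0.443 CPM in CAC mice (log2 0.43, edgeR FDR 0.349). C1qtnf9 averaged 94.0 ± 19.0 and 102.7 ± 31.8 CPM (log2 0.12, edgeR FDR 0.793), with CAC replicate 1 the highest of all 16 muscles at 148 CPM. C1qtnf12 averaged 15.4 ± 2.36 and 14.5 ± 4.05 CPM (log2 −0.08, edgeR FDR 0.859).

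**Figure D2:**
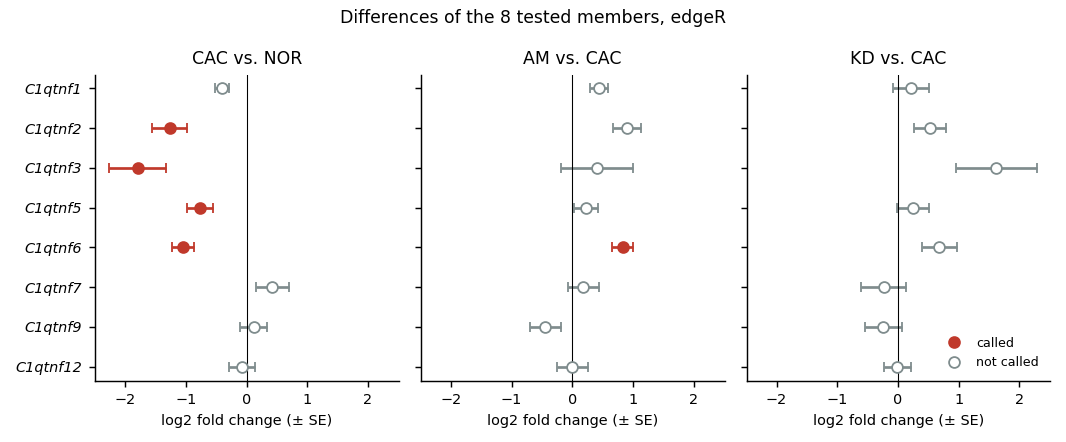
Log2 fold change and its SE of the 8 tested members in 3 comparisons, from the edgeR fit; filled red points passed both the FDR and the fold limit. In CAC vs. NOR 4 members are filled, from −0.76 to −1.79; in AM vs. CAC only C1qtnf6 is filled, at 0.83; in KD vs. CAC none is.

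The 4 members were lower in CAC mice of both labelled strains, but fewer were called when most single libraries were left out. Such fits also held fewer mice, and the part of this in the lost calls was not tested. Within the C57BL/6 mice alone the log2 differences of C1qtnf6, C1qtnf2, C1qtnf3 and C1qtnf5 were −1.06, −1.35, −2.16 and −0.56, and within the BALB/c mice −0.98, −1.12, −1.29 and −0.97; with 2 mice a group, none of these passed the FDR limit (lowest FDR 0.0925). With the labelled strain as a covariate C1qtnf3 lost its call (edgeR FDR 0.0540), and with the replicate number as a block C1qtnf5 lost its call (edgeR FDR 0.0627). When NOR replicate 1 or 3, or CAC replicate 2, was left out, only C1qtnf6 remained called, and with NOR replicate 2 or CAC replicate 4 left out C1qtnf2 and C1qtnf6 remained. Leaving out the 3 libraries with hardly any lymphocyte marker, NOR replicate 1 and CAC replicates 1 and 4, left 1 call, C1qtnf2 (edgeR FDR 0.0490), and gave C1qtnf6 an FDR of 0.0757 at a log2 difference of −0.86.

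Connective tissue markers moved with these members. All 10 fibroblast markers were lower in CAC than in NOR mice and 4 were called, with a median log2 difference of −1.07; their summed level was 2245 to 4109 CPM in CAC and 5652 to 7044 CPM in NOR mice, and none was at 0 in any library. The 4 called were Dpt and the collagen genes Col1a1, Col3a1 and Col15a1, while Pdgfra (log2 −0.42), Dcn (−0.16) and Cd34 (−0.07) did not pass. Of 8 tested tendon and cartilage markers 4 were called lower, their sum being 188 to 450 against 671 to 1032 CPM. The part of these cells in the falls of C1qtnf2, C1qtnf3, C1qtnf5 and C1qtnf6 was not tested. Lymphocyte markers were lower for 8 of 8 genes and nerve and Schwann cell markers for 5 of 6, and macrophage markers were higher for 5 of 7 (median log2 0.67) and adipocyte markers for 6 of 8 (median log2 0.51), with 0 called in these lists and sums that overlapped between the groups. Skeletal muscle markers were lower for 6 of 8 genes (median log2 −0.25), with sums of 58107 to 128353 CPM in CAC and 118776 to 169462 CPM in NOR mice, and 1 was called, Des, as higher (log2 1.05). Endothelial markers were higher for 3 of 6, with Pecam1 called (log2 0.77) and Kdr at −0.91 without a call, and mural cell markers lower for 5 of 6, with Cspg4 called (log2 −0.66). Erythroid markers were higher in CAC mice, with 5 of 6 called higher and sums of 3648 to 8720 CPM in CAC against 1003 to 1375 CPM in NOR mice.

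**Figure D3:**
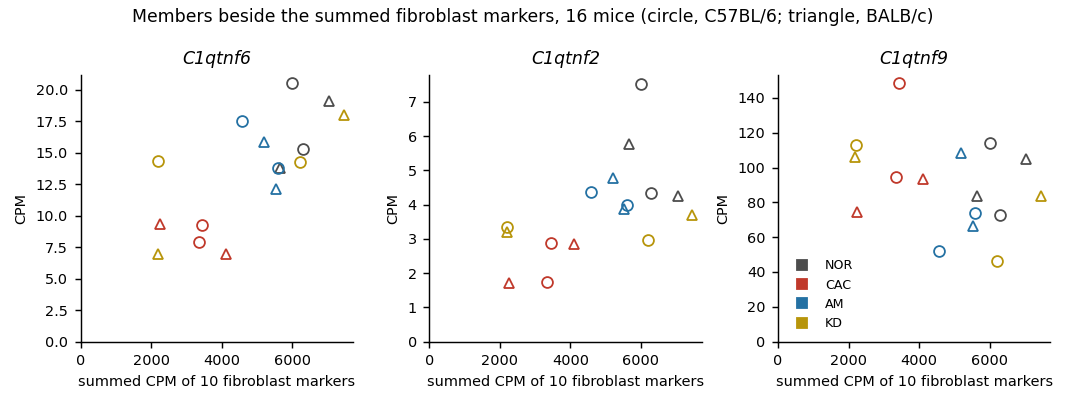
CPM of C1qtnf6, C1qtnf2 and C1qtnf9 in each of 16 mice against the summed CPM of 10 fibroblast markers; colors give the group, circles C57BL/6 and triangles BALB/c. The CAC mice lie at 2245 to 4109 CPM of markers with C1qtnf6 between 6.92 and 9.36 CPM, and KD replicates 2 and 3 lie at 2199 and 2194 CPM of markers with 14.3 and 6.92 CPM of C1qtnf6.

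The sequences upstream of the start sites are given for C1qtnf2, C1qtnf3 and C1qtnf6, the called members that fell without overlap between groups, so that what these promoters share can be seen. The RefSeq table (GRCm38.p6) held a promoter for 6 of the 9 members: C1qtnf2, C1qtnf3, C1qtnf5, C1qtnf6, C1qtnf7 and C1qtnf9. The windows are chr11:43474056-43474275 (plus strand, 220 bases), chr15:10952082-10952331 (plus strand, 250 bases) and chr15:78529652-78529901 (minus strand, 250 bases), each 5′ to 3′. They hold up to 250 bases before the RefSeq start, without the last 30 for C1qtnf2, which lie in a GENCODE exon. The C1qtnf6 window overlaps no GENCODE exon but lies within the GENCODE gene, its 5′ end 1515 bases from that gene's first base, so it belongs to a RefSeq start further along the gene. Capitals mark matches to the motifs searched.
C1qtnf2: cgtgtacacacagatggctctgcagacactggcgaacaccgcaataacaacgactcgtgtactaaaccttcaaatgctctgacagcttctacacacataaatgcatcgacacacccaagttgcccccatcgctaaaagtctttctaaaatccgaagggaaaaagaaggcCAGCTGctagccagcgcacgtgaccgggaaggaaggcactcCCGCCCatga
C1qtnf3: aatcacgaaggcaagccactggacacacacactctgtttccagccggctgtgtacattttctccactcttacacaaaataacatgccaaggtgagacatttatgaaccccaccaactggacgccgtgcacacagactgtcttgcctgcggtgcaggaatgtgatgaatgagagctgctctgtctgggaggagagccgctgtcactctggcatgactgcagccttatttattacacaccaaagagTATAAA
C1qtnf6: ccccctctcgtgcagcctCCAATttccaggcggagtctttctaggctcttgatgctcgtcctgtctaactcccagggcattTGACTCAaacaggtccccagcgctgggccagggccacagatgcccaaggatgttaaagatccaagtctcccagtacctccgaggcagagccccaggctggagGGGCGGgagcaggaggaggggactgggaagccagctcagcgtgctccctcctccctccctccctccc
The motifs searched were the TATA box TATAAA, the CCAAT box, the GC box GGGCGG, the forkhead motif TGTTTAC, the STAT motif TTCNNNGAA, the AP-1 motif TGANTCA, the E-box CAGCTG and the glucocorticoid receptor motif AGAACA, each read on both strands in the 250 bases before each RefSeq start. C1qtnf3 held TATAAA directly before its RefSeq start, a motif in 12.4% of 32851 promoter windows. The GC box was in the C1qtnf2 and C1qtnf6 windows, 10 and 67 bases before the end of the printed sequence, and in 32.7% of all windows. C1qtnf2 further held the E-box, found in 13.0% of windows, and C1qtnf6 held the CCAAT box (33.8%) and the AP-1 motif (6.75%). None of the motifs was common to the 3 windows. Their GC content was 51.4%, 49.2% and 62.8%.

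The second comparison, AM against CAC, asks what amiloride changed in tumor-bearing mice. By edgeR C1qtnf6 alone of the 8 members was called, as higher, and the background was smaller: 3.72% of 14674 genes were called, 1.63% as higher. C1qtnf6 was 17.5, 13.8, 12.1 and 15.9 CPM in AM replicates 1 to 4, above every CAC value, with a fold of 1.78 (log2 0.83 ± 0.17 SE, edgeR FDR 0.0328). C1qtnf2 was 4.38, 3.98, 3.88 and 4.78 CPM in AM mice, also above every CAC value, but its edgeR FDR was 0.0659 at a log2 difference of 0.90 ± 0.23 SE. DESeq2 called both C1qtnf2 and C1qtnf6 (1126 genes in all) and limma-voom C1qtnf6 (558 genes). With limma-trend on log2(FPKM + 0.1) C1qtnf2 was called in place of C1qtnf6 (603 genes). These 2 of the 8 members had AM values wholly above the CAC values, as 6.05% of all genes did. The median log2 difference was 0.31 over the members and 0.01 over all genes.

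The other members gave smaller or less certain differences under amiloride. C1qtnf1 had a log2 difference of 0.44 ± 0.14 SE (edgeR FDR 0.121), with AM values of 27.1, 33.5, 25.8 and 24.5 CPM. C1qtnf3 was 0.420, 1.75, 0.759 and 2.04 CPM in AM mice, spread over the whole CAC range and beyond it (log2 0.41 ± 0.59 SE, edgeR FDR 0.752). C1qtnf9 was 51.9, 74.1, 66.2 and 108 CPM, with a log2 difference of −0.44 ± 0.26 SE (edgeR FDR 0.374). For C1qtnf5, C1qtnf7 and C1qtnf12 the log2 differences were 0.22, 0.18 and 0.00.

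The C1qtnf6 call under amiloride was not firm. It was lost with the labelled strain as a covariate (edgeR FDR 0.0586), with the replicate number as a block (0.179), with all 16 libraries in 1 fit (0.0791) and with total-count scaling (0.0722). It was also lost when CAC replicate 1, 2 or 4 or AM replicate 1, 2 or 4 was left out, while its log2 difference stayed between 0.73 and 0.92 over all alternatives. Fibroblast markers were higher in AM than in CAC mice for 10 of 10 genes, with 4 called (Dpt, Col1a1, Col3a1 and Col15a1) and a summed level of 4580 to 5593 CPM, and 3 of 9 tendon and cartilage markers were called higher, at 525 to 805 CPM. Nerve and Schwann cell markers were higher for 6 of 6 genes, with sums of 391 to 745 CPM in AM against 201 to 384 CPM in CAC mice, and lymphocyte markers for 8 of 8 (median log2 0.79) and erythroid markers for 6 of 6 (median log2 0.23) with sums that overlapped; 0 genes of these 3 lists were called. Skeletal muscle markers were higher for 5 of 8, with sums of 109839 to 137778 CPM in AM against 58107 to 128353 CPM in CAC mice, and Des was called lower (log2 −0.92). Their part in the C1qtnf6 difference was not tested.

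The third comparison, KD against CAC, asks what the loss of Rab27 in the tumor cells changed in the host muscle. No member was called by edgeR, DESeq2 or limma-voom, and edgeR called 0.00685% of 14593 genes (DESeq2 called 333 genes and limma-voom 0). At an unadjusted edgeR p under 0.05 stood C1qtnf3 and C1qtnf6, 2 of 8 members, beside 11.1% of all genes. C1qtnf3 was 3.0, 5.24, 0.577 and 2.62 CPM in KD mice (log2 1.62 ± 0.66 SE, edgeR FDR 0.419): replicates 1, 2 and 4 lay above every CAC value and replicate 3 inside the CAC range. C1qtnf6 showed the same split, at 14.3, 14.3, 6.92 and 18.0 CPM (log2 0.68 ± 0.28 SE, edgeR FDR 0.424), with replicate 3 at the lowest CAC value.

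C1qtnf2 was the steadiest member in the KD mice. Its values of 2.97, 3.35, 3.20 and 3.69 CPM all lay above the CAC range, a pattern shared by 3.71% of genes, with a log2 difference of 0.52 ± 0.26 SE (edgeR FDR 0.509). C1qtnf1 was 29.4, 14.1, 16.3 and 35.4 CPM and so spread more widely in KD than in any other group. Replicates 2 and 3, its low pair, had summed fibroblast markers of 2199 and 2194 CPM against 6206 and 7462 CPM in replicates 1 and 4, and summed macrophage markers of 202.7 and 91.2 CPM against 805 and 644 CPM.

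AM and KD mice were also set against healthy muscle, and against each other. Between AM and NOR, between KD and NOR and between AM and KD, edgeR, DESeq2 and limma-voom called 0 members, and edgeR called 0 genes of 14738, 14748 and 14745 (0% each; DESeq2 called 70, 31 and 1 genes and limma-voom 0 in each). At an unadjusted edgeR p under 0.05 there were 2 members in AM vs. NOR (C1qtnf3 and C1qtnf5, beside 9.19% of genes), 1 in KD vs. NOR (C1qtnf2, beside 3.54%) and 0 in AM vs. KD (1.11% of genes, and 1 member, C1qtnf2, by DESeq2). The AM values of C1qtnf3 lay wholly below the NOR values, as for 2.82% of genes, and so did the KD values of C1qtnf2, as for 0.949%. C1qtnf2 stood higher in every AM than in every KD mouse, as did 0.509% of genes. These comparisons share groups with the 3 above and with each other and are not independent of them. A missed threshold with 4 mice a group does not show that levels were restored.

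C1qtnf4 is described by its counts alone. Its protein carries a pair of C1q domains and no collagen stalk, and it has been studied for effects on food intake and inflammation. It was listed at 0 reads in all 4 CAC mice and in NOR replicate 2, and at 223, 240 and 265 reads in NOR replicates 1, 3 and 4. AM mice had 255, 188, 300 and 222 reads, and KD mice 229, 491, 244 and 192 reads. No muscle lay between 0 and 188 reads. By counting error alone a count of 0 allows up to 3 counts, which is 0.0474 to 0.0688 CPM in those 5 libraries. The lowest level above 0 was 3.52 CPM. No fold is drawn from this gap, since these zeros chose the family. The deposited FPKM values were at 0 in the same 5 libraries.

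**Figure D4:**
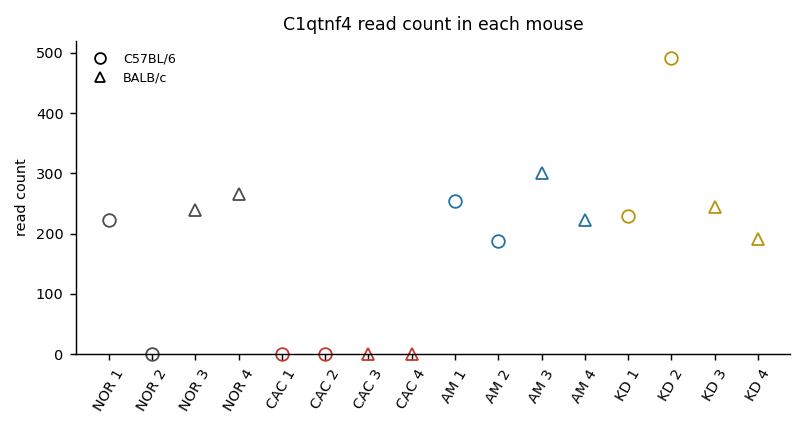
Reads of C1qtnf4 in each of the 16 mice, colored by group, with circles for C57BL/6 and triangles for BALB/c. The 4 CAC mice and NOR replicate 2 lie at 0, the other 11 mice lie at 188 reads or more, and KD replicate 2 is highest at 491.

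The zeros of C1qtnf4 chose the family, so what follows describes the table and nothing is read from it. Of 21923 genes, 8 were at 0 in some libraries and at 100 reads or more in all others (at least 4): C1qtnf4, the Y-linked genes Ddx3y, Eif2s3y, Kdm5d and Uty (0 in KD replicate 3), Gm20431, H2-Q1 and Pcdhb17. Its transcripts share no 31-base word with another annotated gene, and no annotated gene overlaps it at chr2:90885860-90890525. A count of exactly 0 can also arise when a tool fails to assign reads to a gene, and whether that happened here was not tested.

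Of the genes known to act beside the family, edgeR called 3 of 34 tested in CAC vs. NOR, beside 9.48% of all genes. Of 22 other genes with C1q domains 14 could be tested, and edgeR called 2, both lower. Col8a2, a collagen of basement membranes, fell from 7.93 ± 2.66 to 1.81 ± 0.717 CPM (log2 −2.15, edgeR FDR 0.00924). Caprin2, an RNA-binding protein, fell from 4.41 ± 0.818 to 1.61 ± 0.674 CPM (log2 −1.46, edgeR FDR 0.0199). DESeq2 and limma-voom also called C1ql3, at 1.29 CPM in NOR and 0.561 CPM in CAC mice (edgeR log2 −1.22, FDR 0.0611). These tools called 1931 and 1459 genes in all. The complement genes C1qa, C1qb and C1qc, made by macrophages, had log2 differences of 0.68, 0.69 and 0.64 with FDRs of 0.109 to 0.177, and Erfe, the muscle and erythroid CTRP also named myonectin, 0.94 (edgeR FDR 0.210). Adiponectin itself (Adipoq) was not called, at 103 ± 106 CPM in NOR and 133 ± 115 CPM in CAC mice (log2 0.41 ± 0.83 SE, edgeR FDR 0.803). The Col8a2 call held without any single replicate, while that of Caprin2 was lost without NOR replicate 2 or 3. Both were lost without the libraries of low lymphocyte marker level.

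No receptor or binding partner passed both limits in CAC vs. NOR (0 of 5 tested by edgeR, DESeq2 and limma-voom; 1 at an unadjusted edgeR p under 0.05, beside 29.1% of all genes). Adipor2, an adiponectin receptor, came nearest: its level was 142 ± 26.2 CPM in NOR and 209 ± 28.4 CPM in CAC mice, and its FDR of 0.0459 passed but its log2 difference of 0.56 was under the fold limit. The differences of Lamp1 (0.24), Cdh13 (−0.05) and Scarb2 (−0.11) were smaller. Of 15 genes of the AMPK arm edgeR called 1, Prkag3, the AMPK gamma subunit of fast muscle fibers, which fell from 178 ± 34.6 to 51.5 ± 34.2 CPM (log2 −1.81, edgeR FDR 0.0397). The Prkag3 call was lost with the replicate number as a block, without any single NOR mouse, without CAC replicate 4 and without the libraries of low lymphocyte marker level. Appl2 (log2 0.46, edgeR FDR 0.0247), Cab39 (0.49, FDR 0.0295) and Acacb (0.58, FDR 0.0349) were higher in CAC mice and passed the FDR but not the fold limit by edgeR. Acacb was called by limma-voom. The catalytic subunits Prkaa1 and Prkaa2 had log2 differences of 0.22 and −0.01.

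In AM vs. CAC edgeR called 0 of the 34 related genes tested, beside 3.72% of all genes. At an unadjusted edgeR p under 0.05 were 7 of 14 C1q-domain genes, 2 of 5 receptors and partners and 4 of 15 AMPK genes (21.7% of all genes). The largest and smallest differences among the C1q-domain genes were those of C1ql3 (log2 1.35), Col8a2 (1.31), Cbln2 (−1.71) and C1qb (−0.52), none of which passed by edgeR. DESeq2 called C1ql3, Col8a2, Cbln2 and Caprin2 (1126 genes in all), and limma-voom called Caprin2 (558 genes in all). C1ql3 and Cbln2 were low in level. C1ql3 averaged 1.43 CPM in AM and 0.561 CPM in CAC mice, and Cbln2 0.184 and 0.614 CPM. Among receptors and partners they were those of Scarb2 (0.12), Cdh13 (−0.06), Adipor1 (−0.40) and Adipor2 (−0.37), and in the AMPK arm those of Prkag3 (1.15), Prkab2 (0.57), Cab39 (−0.48) and Acacb (−0.45). In KD vs. CAC edgeR called 0 of 34, beside 0.00685% of all genes, with 4 of 14 C1q-domain genes, 0 of 5 receptors and partners and 2 of 15 AMPK genes at an unadjusted p under 0.05 (11.1% of all genes); DESeq2 called 1, Prkag3, and limma-voom 0. Prkag3 stood at 140.0 ± 17.4 CPM in KD mice (log2 1.44 against CAC, edgeR FDR 0.333), ahead of Prkab2 (0.62), with Appl2 (−0.42) and Cab39 (−0.39) at the other end of the AMPK arm. C1ql3 (1.15), Caprin2 (1.14), Cbln2 (−1.15) and Erfe (−1.73) bounded the C1q-domain genes, and Cdh13 (0.27), Scarb2 (0.11), Adipor1 (−0.21) and Adipor2 (−0.25) the receptors and partners.

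Likeness of the members to other genes was measured as Pearson's r of log2 CPM over the 16 libraries, against 13209 genes of at least 1 CPM on average, and is a description only, since the libraries share groups, depth and tissue makeup. C1qtnf6 was most like the fibrillar collagens Col3a1 (r = 0.88) and Col5a2 (0.88), followed by Prnd (0.86). C1qtnf1 was nearest to the complement protease C1s1 (0.93), then Epb41l2 (0.90) and Mmp23 (0.90), and C1qtnf2 to Smco4 (0.93), Ism1 (0.90) and Pkdcc (0.90). For C1qtnf9 the nearest genes were Afap1l1 (0.89), Ppm1b (0.89) and Sgcb (0.89), the last a part of the muscle membrane's sarcoglycan complex.

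Less close neighbours stood beside the others. C1qtnf3 had Lamtor4 (0.82), Cavin2 (0.80) and Pdcl (0.79), and C1qtnf5 had Cdk19 (0.87), Hilpda (0.85) and Amd2 (0.83). For C1qtnf7 they were the sodium channel gene Scn7a (0.86), Gm49339 (0.84) and Larp6 (0.83), and for C1qtnf12 Cryzl2 (0.86), Gm12216 (0.86) and H2-Q10 (0.84). No member was among the 3 nearest genes of another. Between members, r was highest for C1qtnf2 and C1qtnf6 (0.71) and for C1qtnf3 and C1qtnf5 (0.67), followed by C1qtnf3 and C1qtnf6 (0.64), and it was lowest for C1qtnf3 and C1qtnf7 (−0.43).

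No member was called between the labelled strains, whose labels the counts leave in doubt. The edgeR fit between the labelled strains called 0 of 8 members (0% of all genes), with 0 at an unadjusted p under 0.05 and log2 differences from −0.35 (C1qtnf7, lower in C57BL/6) to 0.41 (C1qtnf3, higher in C57BL/6). Whether the difference of CAC from NOR, of AM from CAC or of KD from CAC itself depended on the strain was tested as an interaction. The test called 0 members by edgeR, DESeq2 or limma-voom and 0% of genes by edgeR (DESeq2 called 125, 443 and 100 genes), with 0 members at an unadjusted edgeR p under 0.05 in each and 1 by DESeq2 in AM vs. CAC. The widest such differences were −0.97 for C1qtnf9 in AM vs. CAC (log2, SE 0.46) and 1.53 for C1qtnf3 in KD vs. CAC (SE 1.29). With 2 mice per strain and group these intervals are wide, and a missed threshold does not show that the strains responded alike.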

How the data were processed

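The authors deposited 1 table with read counts and FPKM values per gene for 16 gastrocnemius libraries (oligo(dT)-enriched RNA, HiSeq2500). Per the labels, fastp, Bowtie2, HISAT2 and StringTie 1.3.1 were used with mm9 and GRCm38 named as builds; the counting tool and its use of strand are not given in the sources used here, so reads of antisense partners cannot be told apart. The deposited counts entered edgeR 4.0.16 (R 4.3.3) as they were, and the deposited FPKM values served for levels between genes. Members and gene lists were chosen with earlier results of these data known.

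Each comparison was fitted on its own 8 libraries (filterByExpr with a minimum count of 10, TMM, glmQLFit, quasi-likelihood F-test), with Benjamini-Hochberg adjustment over all genes. CPM values were TMM-scaled over all 16 libraries. Genes were called at the limits the study gives, 0.05 for the FDR and 1.5 and 0.67 for the fold; the study's own tool was not used here. The 8 tested members all passed the count filter in each comparison; C1qtnf4 did not pass it in CAC vs. NOR and was compared between groups in none. Limits of a count of 0 (3 counts) cover counting error only. The labels do not say that the libraries came from separate experiments, so p-values measure the spread between these mice. DESeq2 1.42.0, limma 3.58.1, other scalings and filters, a strain covariate, a replicate block and leaving out each library were alternatives. The tests were also run on counts simulated from these libraries with known folds. The outcome is not given here, so no accuracy is claimed from it. Named genes were all members, the called genes of each related list (otherwise the 2 of largest and 2 of smallest log2 difference) and the 3 genes most like each tested member; C1qa, C1qb, C1qc, Erfe, Adipoq, Prkaa1, Prkaa2 and the marker genes were named after their values were seen. Positions and transcripts are from GENCODE vM21 (GRCm38) and promoters from RefSeq (GRCm38.p6), matched by symbol.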

Additional observations from a re-analysis of the deposited data

Results flagged for a closer look

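C1qtnf4 in KD replicate 2 stood far from the other KD mice, at 12.2 CPM against 3.52 to 4.54 CPM in KD replicates 1, 3 and 4. The gap passed Dixon's 95% critical value for 4 samples. This compares mice within a group and is no test between groups. Of 35 member and group sets examined in this way 1 passed, and chance passes about 1 in 20.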

How the results depend on the processing

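In CAC vs. NOR the differences of C1qtnf1, C1qtnf2, C1qtnf3, C1qtnf5 and C1qtnf6 kept their sign in all 22 alternatives, with FDRs of 2.15e-06 to 0.235 for C1qtnf6 and 0.000553 to 0.269 for C1qtnf2; C1qtnf3 and C1qtnf5 each lost the call in 12 of them. The 4 called members became 2 with total-count scaling, 0 in the C57BL/6 mice alone, 0 in the BALB/c mice alone and 1 without the libraries of low lymphocyte marker level, an alternative chosen after seeing the data, and 1 to 4 without 1 replicate each. The 3 related genes called became 7 with total-count scaling, 5 with limma-voom, 7 with limma-trend on log2(FPKM + 0.1) and 7 on FDR with no fold limit. Over all genes the 1391 calls became 1580, 1459, 1625 and 2048 in the same settings, in that order. The related genes called were 0 in either strain alone and 1 to 4 without 1 replicate each. Without the libraries of low lymphocyte marker level 1 was called (Mmrn1, none of the 3).

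In AM vs. CAC the 1 called member became 2 with DESeq2 (C1qtnf2 and C1qtnf6), was C1qtnf2 in place of C1qtnf6 with limma-trend, and became 0 with total-count scaling, a strain covariate, the replicate block, all 16 libraries in 1 fit, either strain alone or the low-lymphocyte libraries left out, and was 0 to 1 without 1 replicate each; the 0 related genes became 4 with DESeq2, 1 with limma-voom and 4 with limma-trend. In KD vs. CAC the 0 related genes became 1 with DESeq2. The cause of these shifts was not tested. The fits of 1 strain or without libraries also held fewer mice, and the part of this was not tested either.

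Signs turned for members that were not called. In CAC vs. NOR, C1qtnf9 was −0.14 in BALB/c mice, −0.017 without the low-lymphocyte libraries and −0.11 to 0.26 without 1 replicate each, and C1qtnf12 was 0.053 with total-count scaling, 0.0053 with limma-trend, 0.0088 in C57BL/6 mice, 0.18 without the low-lymphocyte libraries and −0.23 to 0.074 without 1 replicate each. In AM vs. CAC, C1qtnf5 was −0.13 in C57BL/6 mice, C1qtnf9 was 0.032 in BALB/c mice, and C1qtnf12 was 0.015 with RLE size factors, 0.044 with upper-quartile scaling, 0.0090 with a CPM filter, 0.015 with DESeq2, 0.021 with limma-voom, 0.021 with the replicate block, 0.087 in C57BL/6 mice and −0.17 to 0.16 without 1 replicate each. In KD vs. CAC, C1qtnf1 was −3.26e-06 with limma-trend and −0.039 to 0.39 without 1 replicate each, C1qtnf7 was 0.076 in BALB/c mice and 0.29 without the low-lymphocyte libraries, C1qtnf9 was 0.15 in BALB/c mice, and C1qtnf12 was 0.021 with upper-quartile scaling, 0.041 with limma-voom, 0.017 with the replicate block, 0.18 in BALB/c mice and −0.16 to 0.16 without 1 replicate each.

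Replicate numbers were not taken to pair the mice, since correlations of same-numbered deviations were not over 0.1 for every pair of any comparison. They ran from −0.70 to 0.68 over 24 pairs, with 3 of 4 pairs over 0.1 in CAC vs. NOR (0.68, 0.18 and 0.41, against −0.24) and in AM vs. KD. With the replicate number as a block, 3 members were called in CAC vs. NOR and 0 in the other 5 comparisons. No paired fit of the strain comparison was possible because the replicate number sets the strain. Member levels moved by at most 1 SD in all 252 values recomputed under other scalings or without a replicate.

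Counts over all genes shifted further. In CAC vs. NOR the 1391 genes called became 247 in C57BL/6 mice, 0 in BALB/c mice, 399 without the low-lymphocyte libraries and 731 to 1275 without 1 replicate each. In AM vs. CAC the 546 genes became 1126 with DESeq2, 344 with a strain covariate, 233 with all 16 libraries in 1 fit, 0 with the replicate block or in either strain, 18 without the low-lymphocyte libraries and 214 to 451 without 1 replicate each. In KD vs. CAC the 1 gene became 333 with DESeq2, 145 with all 16 libraries in 1 fit and 4 with limma-trend. C1qtnf3 had 19 to 73 reads in CAC mice, with an SD of 0.489 CPM around a mean of 0.932 CPM.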
